A study of Bos taurus with 3 samples.

Results

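Metallothioneins are small cysteine-rich proteins that bind zinc and copper, and their genes are switched on when the metal sensor MTF1 is loaded with zinc. SLC30A1 carries zinc out of the cell across the plasma membrane and SLC39A4 carries dietary zinc into gut epithelial cells. The rumen wall is a stratified, keratinised epithelium that meets dietary metal directly, and metallothioneins in such layers are known as a zinc store and as a buffer against reactive metal and oxidants.

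The 6 genes described here are the metallothioneins MT1E, MT1E.1 and MT2A, the zinc exporter SLC30A1, the zinc importer SLC39A4 and the metal sensor MTF1, of 19533 genes in the count matrix. They were chosen by name, with earlier results on these cells known, and their levels were read across cell states selected on the measured unique molecular identifiers (UMIs) of DLK2, GJA1, GSTA1 and FABP4. DLK2 marked granule cells in the study, GJA1 encodes a gap junction protein, GSTA1 a glutathione transferase and FABP4 a fatty acid-binding protein. A state gene was counted as present in a cell at 1 or more UMIs and as absent at 0. This gave 10 states, which are ranges of counts and not cell types: the 8 combinations without DLK2, DLK2 alone, and DLK2 with any of the other state genes. The state genes chose the cells, so their own levels are not results here. The tests below set a difference in the other genes against the scatter of the sums per cow and state. That scatter is pooled over the 10 states of the same 3 libraries. A small p-value therefore does not show how evenly a difference held over 3 animals.

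The cells came from the rumen of 3 adult Holstein dairy cows, with 1 library per cow and no treatment groups, so every comparison is between cells of the same animals. The study took tissue from the ventral sac of lactating animals, removed the muscle layer, loosened the epithelium with EDTA and enzymes, and deposited only the cells it kept as epithelial. EDTA binds zinc and other divalent metals, it was used on all 3 tissues, and its part in the metallothionein levels was not tested. The matrix held 20728 cells with 237958901 UMIs, from 3369 to 9958 cells and 38912809 to 104189434 UMIs per cow, and 35 barcodes occurred in more than 1 library.

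Of the keratinocyte markers, KRT5 was found in 99.9% and KRT14 in 99.5% of cells, and KRT19 in 68.4%. The most abundant smooth muscle markers, ACTA2 and DES, had 107 and 102 UMIs in all cells together. The fibroblast markers COL1A1, COL1A2, COL3A1 and DCN had between 1 and 5 UMIs in all cells together and LUM was not in the matrix, and the most abundant immune and endothelial markers, CD74 and VWF, had 783 and 563 UMIs. The zinc part of the list was scarce: SLC30A1 had 572 UMIs, SLC39A4 had 307 and MTF1 had 791, against 347875 for MT2A. No sequence table for these genes was at hand, so none is shown.

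The 3 metallothioneins were lowest in cells with DLK2 alone and rose towards the states with GSTA1. MT2A (ENSBTAG00000023659), the most abundant of them, was 5.23, 4.81 and 5.43 UMIs per 10000 UMIs in the DLK2-alone cells of cows 1, 2 and 3 (5.16 ± 0.316, mean ± SD, n = 3). In cells with GSTA1 and FABP4 it was 29.6, 29.2 and 33.4 (30.7 ± 2.34, SD, n = 3). The 2 sets of values did not overlap, and the means stood 5.96-fold apart. The other states lay between them: 10.2 ± 1.03 where DLK2 occurred with another state gene, 12.6 ± 1.56 with no state gene, 16.0 ± 1.63 with GJA1 alone, 17.7 ± 1.80 with FABP4 alone, 20.1 ± 4.95 with GJA1 and FABP4, 23.6 ± 3.46 with all of GJA1, GSTA1 and FABP4, 25.8 ± 3.25 with GSTA1 alone and 26.7 ± 1.66 with GJA1 and GSTA1 (SD, n = 3).

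**Figure D1:**
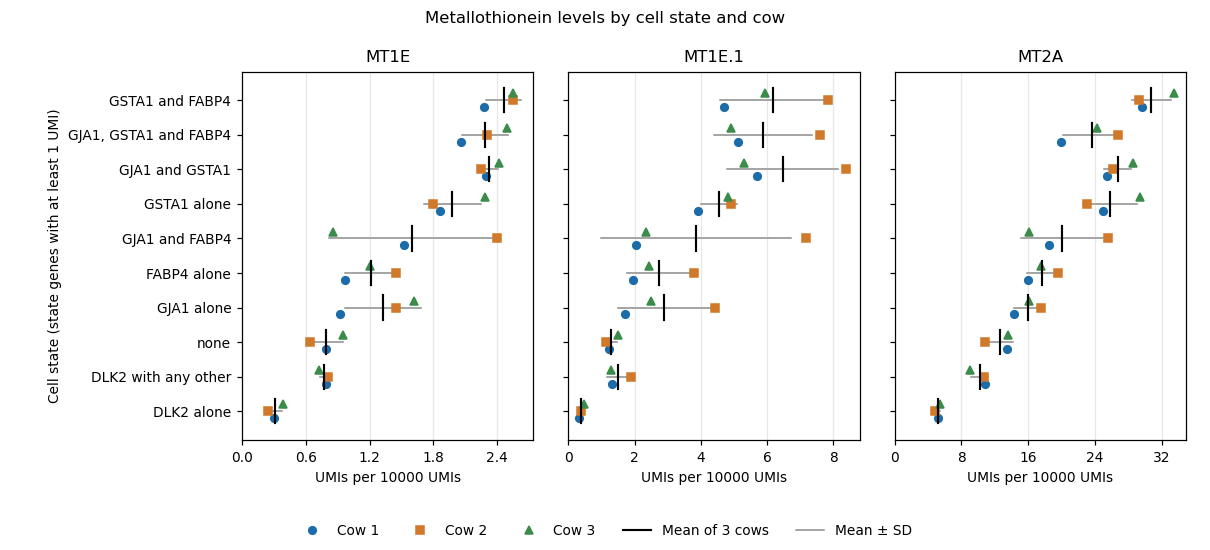
Level of MT1E, MT1E.1 and MT2A (horizontal axes, UMIs per 10000 UMIs, ranges differ) in the 10 cell states (vertical axis, named by the state genes with at least 1 UMI). Each symbol is 1 cow, the black bar is the mean and the grey line the mean ± SD of 3 cows; the DLK2-alone cells sit lowest in all 3 panels, with MT2A at 5.16 against 30.7 in cells with GSTA1 and FABP4.

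MT1E.1 (ENSBTAG00000001595) had the widest range of the 3. In DLK2-alone cells it was 0.337, 0.397 and 0.465 UMIs per 10000 UMIs in cows 1, 2 and 3 (0.399 ± 0.0642, SD, n = 3). In cells with GJA1 and GSTA1 it was 5.70, 8.39 and 5.31 (6.47 ± 1.68, SD, n = 3). The means stood 16.2-fold apart, and cow 2 was the highest of the 3 animals in each state with GJA1, in each state with FABP4 and in GSTA1-alone cells. Cells with no state gene held 1.23, 1.15 and 1.50, above the DLK2-alone cells of the same cow in 3 of 3 cows.

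MT1E (ENSBTAG00000038706), the least abundant of the 3, was 0.297, 0.245 and 0.382 UMIs per 10000 UMIs in DLK2-alone cells of cows 1, 2 and 3. With GSTA1 and FABP4 it was 2.28, 2.55 and 2.55 (2.46 ± 0.161, SD, n = 3), 7.99-fold the DLK2-alone mean of 0.308 ± 0.0693. Cows 1 and 2 lay below cow 3 in DLK2-alone cells, and the states did not overlap. The gene list names both loci MT1E and keeps them apart by Ensembl identifier. Metallothionein genes are near-copies of each other, so how the counting divided reads between MT1E, MT1E.1 and MT2A is uncertain.

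Not every step in the order of states exceeded its spread. Of the 9 pairs of neighbouring states, the mean difference was larger than the SD of the 3 within-cow differences and had the same sign in 3 of 3 cows for 5 pairs in MT2A, 3 in MT1E.1 and 3 in MT1E. For MT2A the steps from DLK2 alone to DLK2 with another gene, from there to no state gene, on to GJA1 alone and on to FABP4 alone were beyond the spread, as was the step from GJA1 and GSTA1 up to GSTA1 and FABP4. Between GJA1 with FABP4, the triple state, GSTA1 alone and GJA1 with GSTA1 (20.1 to 26.7 UMIs per 10000 UMIs) no neighbours differed beyond it. The GJA1 and FABP4 state held only 45 cells, 6 of them from cow 3.

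The first comparison set the 4 states with GJA1 and without DLK2 against DLK2 alone. Here and below, UMIs were summed per cow and state and fitted with edgeR's quasi-likelihood test, with the cow as a block, over 10284 genes. A call needed a log2 fold change past 0.25 in either direction together with a Benjamini-Hochberg adjusted p below 0.05. All 3 metallothioneins were higher: MT1E by 2.69 ± 0.121 (log2 ± SE, edgeR adjusted p = 1.1e-18), MT1E.1 by 3.52 ± 0.163 (edgeR adjusted p = 2.3e-18) and MT2A by 2.10 ± 0.0873 (edgeR adjusted p = 1.8e-19), each in 3 of 3 cows. So 3 of the 6 genes were called higher and none lower, where 15.4% of all genes tested were called higher and 23.2% lower (38.6% in all). The median over the 6 genes was 1.01 on the log2 scale against -0.12 over all genes.

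GSTA1-alone cells showed the same direction against DLK2 alone, with fold changes of 6.88 for MT1E, 12.1 for MT1E.1 and 5.29 for MT2A (edgeR adjusted p = 1.4e-18, 1.3e-17 and 2.6e-19). In FABP4-alone cells the folds against DLK2 alone were 4.23, 6.97 and 3.54 (edgeR adjusted p = 1.3e-13, 8.8e-14 and 2.4e-15). Again 3 of the 6 genes were called higher in each, and none lower. Of all genes, 18.6% were called higher and 18.8% lower with GSTA1 alone (37.4% in all), and 8.97% higher and 7.1% lower with FABP4 alone (16.1% in all). These 3 comparisons share the DLK2-alone cells of the same cows, so they are not independent of each other. With GSTA1 alone, 49.7% of the calls over all genes were higher, and 38.6% when scaled by library size alone; the metallothioneins stayed called higher in both.

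Cells with GSTA1 carried more metallothionein RNA than cells without it also inside the GJA1 states. Summed over the states, the MT2A level with GSTA1 was 1.49, 1.35 and 1.67 times that without it in cows 1, 2 and 3, and the MT1E.1 level 3.01, 1.56 and 2.08 times. All 3 cows were on the same side. The fitted log2 differences were 0.63 ± 0.0755 for MT2A, 1.07 ± 0.145 for MT1E.1 and 0.74 ± 0.128 for MT1E (edgeR adjusted p = 2.9e-07, 2.7e-06 and 0.00011), so that 3 of 6 genes were called higher where 7.25% of all genes were called higher and 1.12% lower (8.37% in all). Without cow 1 MT1E fell to 0.43 and MT1E.1 to 0.62 and neither was called, while MT2A still was. In that fit the GJA1 and FABP4 state was a single sum of 13 cells, from cow 2. With cells pooled, the MT1E level with GSTA1 was 2.02, 1.35 and 1.62 times that without it in cows 1, 2 and 3. MT1E.1 also lost the call without the cow block (0.97, edgeR adjusted p = 0.139), and MT1E with state genes at 2 or more UMIs (0.62, edgeR adjusted p = 0.111). The median of all genes was itself 0.16 above zero here, and -0.04 when scaled by library size alone. That other scaling changed the share of calls that were higher from 86.6% to 49.0% but left all 3 metallothioneins called higher.

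FABP4 inside the GJA1 states showed no called difference in any of the 6 genes, where 0.35% of all genes were called, 0.146% higher and 0.204% lower (36 genes, 41.7% of them higher, against 57 genes and 70.2% when scaled by library size alone). The fitted log2 difference was 0.11 for MT2A (95% interval -0.05 to 0.27), 0.18 for MT1E.1 (-0.13 to 0.49) and 0.27 for MT1E (-0.01 to 0.55). The fit weighs the states equally, and with cells pooled instead the MT2A level with FABP4 was 0.842, 1.07 and 0.875 times that without it in cows 1, 2 and 3. For MT2A the cows fell on both sides of 1, while MT1E.1 was 0.967, 0.966 and 0.961 times, below 1 in 3 of 3 cows and opposite in sign to its fitted value. MT1E was 0.979, 1.08 and 1.05 times.

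GSTA1-alone cells also exceeded FABP4-alone cells. MT2A was 24.9, 23.0 and 29.4 UMIs per 10000 UMIs with GSTA1 alone and 15.9, 19.5 and 17.5 with FABP4 alone. The groups did not overlap, and the smallest gap was in cow 2. The fitted log2 differences were 0.58 ± 0.0950 for MT2A, 0.79 ± 0.165 for MT1E.1 and 0.70 ± 0.127 for MT1E (edgeR adjusted p = 0.0011, 0.011 and 0.0032), so that 3 of 6 genes were called higher where 0.399% of all genes were called higher and 0.214% lower (0.613% in all). All 3 calls depended on the block and on cow 3: without the block the log2 differences were 0.57 for MT2A, 0.74 for MT1E.1 and 0.71 for MT1E, each with an edgeR adjusted p of 1. Without cow 3 they were 0.47 for MT2A, 0.65 for MT1E.1 and 0.52 for MT1E (edgeR adjusted p = 0.129, 0.236 and 0.168). Without cow 1, MT1E and MT1E.1 also lost the call at 0.64 and 0.70 (edgeR adjusted p = 0.0919 and 0.165), as they did with state genes at 2 or more UMIs (0.57 and 0.75, edgeR adjusted p = 0.0796 and 0.0869) and MT1E.1 at 2 to 20% mitochondrial share (0.79, edgeR adjusted p = 0.0814).

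**Figure D2:**
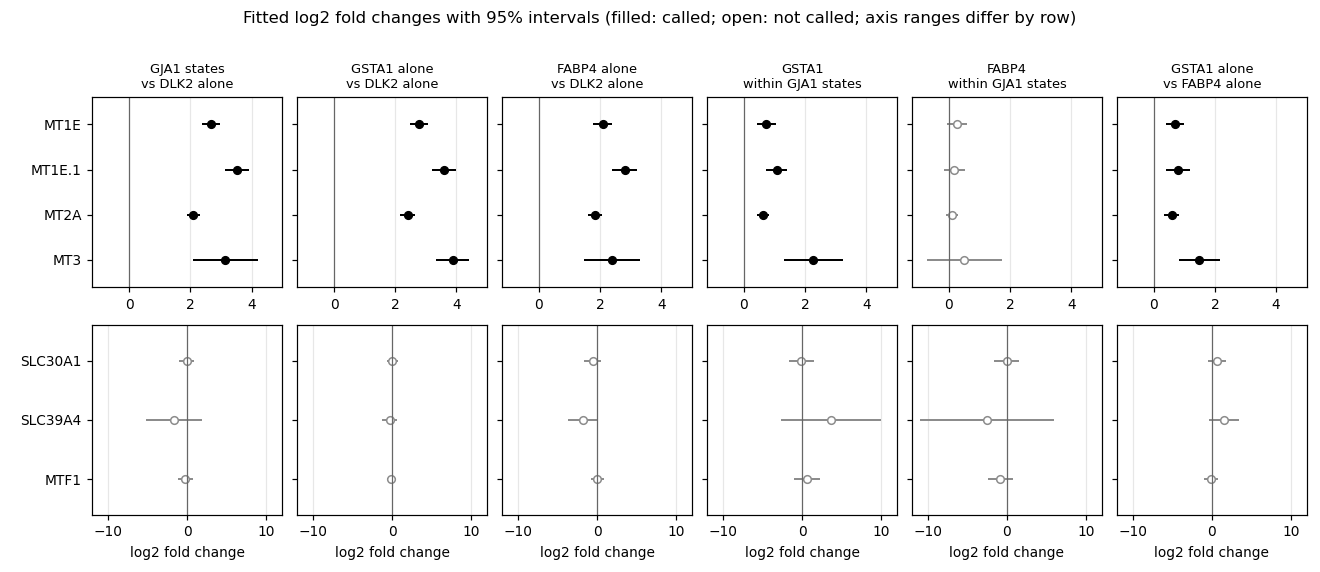
Fitted log2 fold changes (horizontal axes) with 95% intervals of 4 metallothioneins (top row) and of MTF1, SLC39A4 and SLC30A1 (bottom row, wider axis) in the 6 comparisons of cell states. The sums came from 3 cows, except that the 6 GJA1 and FABP4 cells of cow 3 were too few for a sum. Filled symbols are called and open symbols are not. The 4 metallothioneins drawn are called higher in 5 of the 6 comparisons, and the bottom row holds no called gene. MT1A is not drawn.

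The zinc exporter, the importer and the sensor gave no such order. SLC30A1 (ENSBTAG00000010909) was 0.0152, 0.0376 and 0.0173 UMIs per 10000 UMIs in DLK2-alone cells of cows 1, 2 and 3, and 0.0104, 0.0419 and 0.0162 in GSTA1-alone cells. The values overlapped, cow 2 being the highest in both. The log2 difference was 0.02 with a 95% interval from -0.53 to 0.58, which leaves out a change of the size seen in any of the 3 metallothioneins in the same comparison (2.40 to 3.59).

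MTF1 (ENSBTAG00000006511), the sensor that drives metallothionein genes, was 0.0527, 0.0402 and 0.0288 UMIs per 10000 UMIs in DLK2-alone cells and 0.0546, 0.0242 and 0.0300 in GSTA1-alone cells of the same cows. Its log2 difference was -0.09 (95% interval -0.54 to 0.36), and no neighbours among its 9 pairs of states differed beyond the spread; for SLC30A1 and SLC39A4 1 of 9 pairs did. SLC39A4 (ENSBTAG00000046026) was the rarest of the 6 genes, with 0.00710, 0.0114 and 0.0190 UMIs per 10000 UMIs in DLK2-alone cells. In the 554 FABP4-alone cells it had 3 UMIs, all from cow 3, against 80 UMIs in the 6121 DLK2-alone cells (means of 0.00301 and 0.0125 UMIs per 10000 UMIs), and it was not called (edgeR adjusted p = 0.11). In the GJA1 states its intervals were too wide to read: the log2 difference from DLK2 alone was -1.69, from -5.13 to 1.74.

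**Figure D3:**
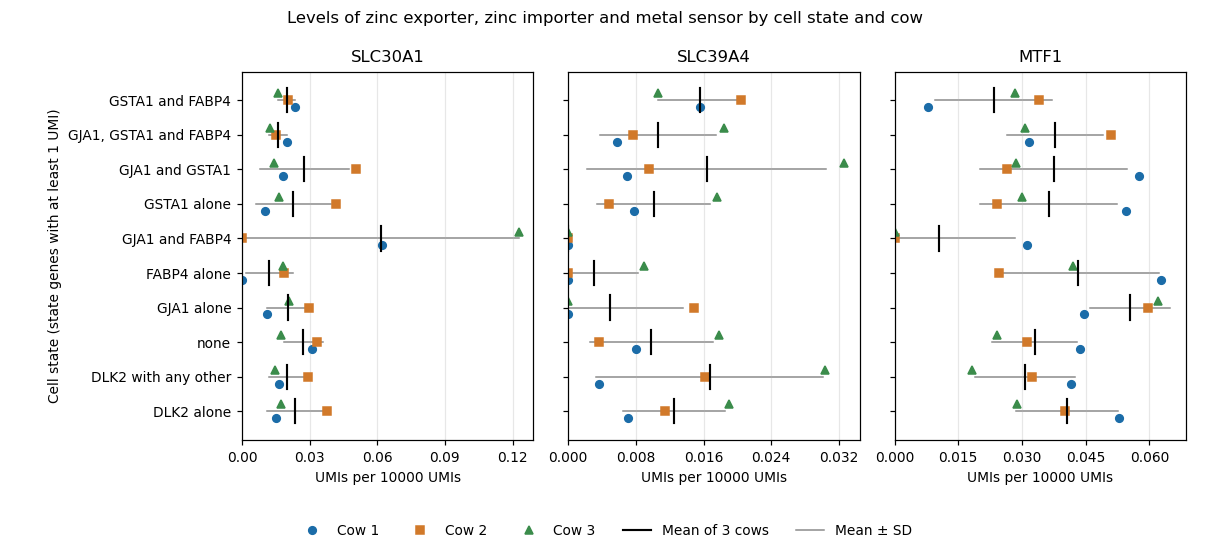
Level of SLC30A1, SLC39A4 and MTF1 (horizontal axes, UMIs per 10000 UMIs, ranges differ) in the 10 cell states (vertical axis). Each symbol is 1 cow, the black bar the mean and the grey line the mean ± SD of 3 cows; the highest level is 0.123, the cows overlap between most states, and the 45 cells with GJA1 and FABP4 give at most 2 UMIs of a gene per cow.

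Besides the 6 members, 16 other genes of zinc handling were tested. Against DLK2 alone, 2 of them were called higher and 3 lower in the GJA1 states, where 38.6% of all genes were called. With GSTA1 alone 3 were higher and 3 lower (37.4% of all genes), and with FABP4 alone 1 was higher and none lower (16.1%). The full list, with the members, held 33 genes, of which 30 were in the matrix and 22 passed the low-count filter. In the GJA1 states 5 of these were called higher than in DLK2 alone, 3 lower and 14 neither, and 4 of the 5 were metallothioneins. Over all genes 15.4% were called higher and 23.2% lower in that comparison, and the list's median log2 difference was 0.07 against -0.12 over all genes. With GSTA1 alone it was 6 higher, 3 lower and 13 neither (18.6% and 18.8% of all genes higher and lower), and with FABP4 alone 4 higher, none lower and 18 neither (8.97% and 7.1%), the 4 being MT1E, MT1E.1, MT2A and MT3.

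MT3 (ENSBTAG00000016886), a metallothionein best known from brain, was also lowest in DLK2-alone cells, at a far lower level than the other 3. It was 0.0112, 0.0191 and 0.0173 UMIs per 10000 UMIs in DLK2-alone cells and 0.198, 0.264 and 0.181 in GSTA1-alone cells of cows 1, 2 and 3. The groups did not overlap, and the fitted fold was 14.7 (edgeR adjusted p = 7.3e-15). It was also called higher with GSTA1 inside the GJA1 states, by 2.26 ± 0.441 on the log2 scale (edgeR adjusted p = 0.00052). The side without GSTA1 held only 16 UMIs of MT3 there. Its order of states differed in part from that of the other 3. Its mean with GJA1 alone (0.0443) lay below that with no state gene (0.0682), where the other 3 summed to 20.2 and 14.7.

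MT1A behaved unevenly between animals. In DLK2-alone cells its levels of 0.0416, 0.00542 and 0.00115 UMIs per 10000 UMIs (cows 1, 2 and 3) ran over a wide range, while in GSTA1-alone cells it was 0.0416, 0.0274 and 0.0510. The call against DLK2 alone (log2 1.99 ± 0.505, edgeR adjusted p = 0.0018) therefore came from cows 2 and 3, and cow 1 showed a fold of 1.00. MT1A was called in no other comparison. Against DLK2 alone its edgeR adjusted p was 0.43 for the GJA1 states and 0.66 for FABP4 alone. All 542 UMIs of MT1A lay in 306 cells, up to 55 in a single cell.

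Of the zinc importers, SLC39A7, which releases zinc from the endoplasmic reticulum, was higher in the GJA1 states by 0.31 ± 0.115 (log2 ± SE, edgeR adjusted p = 0.032), from 0.222 ± 0.0351 UMIs per 10000 UMIs in DLK2-alone cells to 0.254 ± 0.0284 (SD, n = 3). SLC39A10, a plasma membrane importer, was lower by a log2 value of -0.53 and SLC39A13 by -0.39 (edgeR adjusted p = 0.0028 and 0.021); both were also called lower with GSTA1 alone, at -0.27 and -0.43 (edgeR adjusted p = 0.043 and 0.0023). With GSTA1 alone SLC39A6, another importer, was -0.50 and SLC39A9 0.54 on the log2 scale (edgeR adjusted p = 0.0085 and 0.045). SLC30A7, which loads zinc into the Golgi, was called lower in the GJA1 states at -2.22 ± 0.861 (edgeR adjusted p = 0.039). With the cells of those states pooled, however, its level was 0.0547 ± 0.0180 against 0.0611 ± 0.0119 (SD, n = 3) with DLK2 alone. By cow it was 0.0575, 0.0712 and 0.0356 against 0.0578, 0.0744 and 0.0512 in cows 1, 2 and 3. Each cow was thus lower, but none came near the fitted fold of 0.215.

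The metallothionein level also differed with the number of UMIs of the state genes. Cells with 0, 1, 2 to 3 and 4 or more UMIs of DLK2 held 23.8 ± 2.12, 9.41 ± 0.877, 6.30 ± 0.441 and 3.96 ± 0.809 UMIs of the 3 metallothioneins per 10000 UMIs (SD, n = 3). By GSTA1 the same classes held 11.3 ± 1.93, 19.7 ± 1.02, 27.5 ± 2.26 and 35.4 ± 3.78. DLK2 classes fell and GSTA1 classes rose at each step in 3 of 3 cows. For DLK2 and GSTA1, cells just inside the limit of 1 UMI thus lay between those outside it and those well inside. Each class pools cells whatever their other state genes. Median depth rose from 9560 UMIs at 0 UMIs of GSTA1 to 15279 at 4 or more. The part of either in these levels was not tested.

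GJA1 did not follow a line. The summed level was 15.8 ± 3.99 at 0 UMIs, 29.2 ± 5.41 at 1, 35.3 ± 0.510 at 2 to 3, and 25.1 ± 3.79 at 4 or more (SD, n = 3). Between the last 2 classes it fell from 34.9 to 22.6 in cow 1, from 35.9 to 29.4 in cow 2 and from 35.1 to 23.1 in cow 3. Most of the drop was in MT2A, from 26.8 ± 1.25 to 18.6 ± 2.40, with MT1E.1 at 6.18 ± 1.66 and 4.79 ± 1.55. For FABP4 the classes held 16.2 ± 3.88, 22.2 ± 2.83, 24.3 ± 1.69 and 32.3 ± 5.42.

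**Figure D4:**
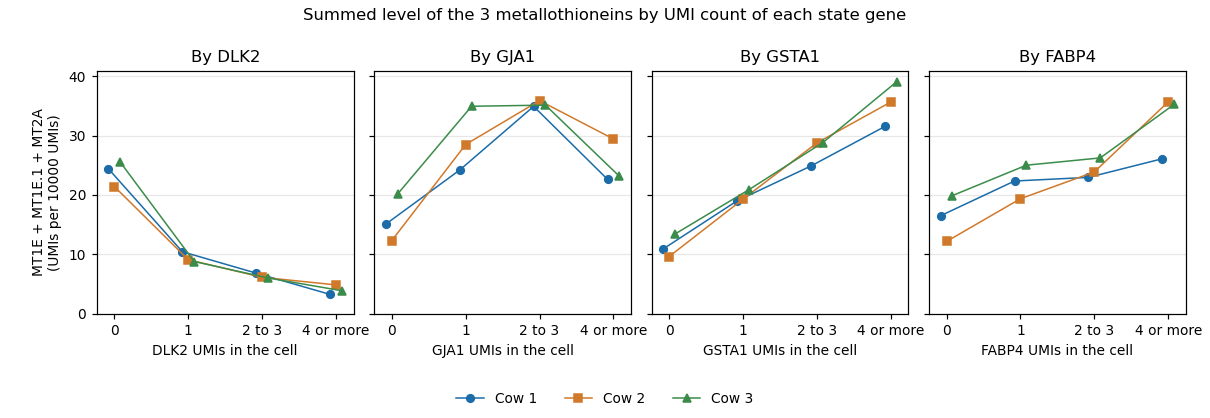
Summed level of MT1E, MT1E.1 and MT2A (vertical axis, UMIs per 10000 UMIs) in cells with 0, 1, 2 to 3 and 4 or more UMIs (horizontal axes) of DLK2, GJA1, GSTA1 and FABP4, 1 line per cow. The level falls with DLK2 and rises with GSTA1 in every cow, and with GJA1 it is highest at 2 to 3 UMIs and lower at 4 or more.

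The 3 metallothioneins did not keep a fixed ratio. For each UMI of MT2A, DLK2-alone cells held 0.0644, 0.0824 and 0.0856 UMIs of MT1E.1 in cows 1, 2 and 3 (0.0775 ± 0.0114, SD, n = 3). Cells with GJA1 and GSTA1 held 0.225, 0.321 and 0.186 (0.244 ± 0.0696) and cells with all of GJA1, GSTA1 and FABP4 held 0.257, 0.284 and 0.204 (0.248 ± 0.0410). The lowest of these lay above the highest DLK2-alone value. For MT1E the ratio moved less, from 0.0594 ± 0.00998 in DLK2-alone cells to 0.0871 ± 0.00301 and 0.0976 ± 0.00993 in the same states. The ratio thus differed between states within each cow's library.

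**Figure D5:**
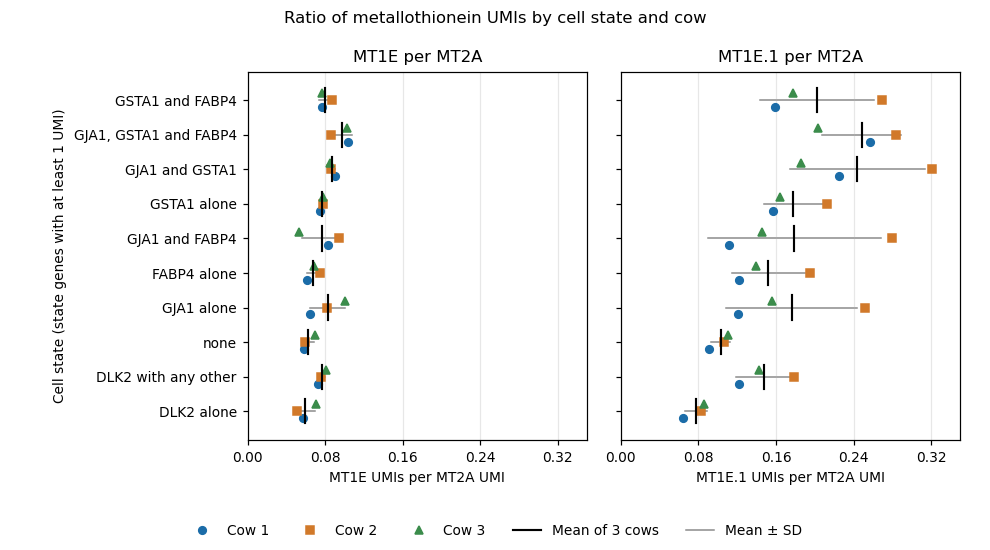
UMIs of MT1E (left) and MT1E.1 (right) per UMI of MT2A (horizontal axes) in the 10 cell states (vertical axis). Each symbol is 1 cow, the black bar the mean and the grey line the mean ± SD of 3 cows; the MT1E.1 ratio goes from 0.0775 with DLK2 alone to 0.248 with all of GJA1, GSTA1 and FABP4.

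Within states the RNA was unevenly spread over cells. The 10% of cells richest in MT2A held 59.2% ± 5.85 of its UMIs among DLK2-alone cells and 33.7% ± 2.42 among GSTA1-alone cells (SD, n = 3), with up to 314 UMIs in a single cell. Cells were ranked here by UMIs not scaled for depth, and the 2 states differ in depth and in mean level. The part of both in these shares was not tested. Correlations across the cells of a cow used the natural log of 1 plus UMIs per 10000 UMIs. On that scale MT1E.1 and MT2A had Pearson's r of 0.639 to 0.673 over all cells and 0.320 to 0.452 in DLK2-alone cells. SLC30A1 and MT2A had r from 0.00499 to 0.0110 over all cells. These correlations describe 3369 to 9958 cells per cow that share a library and differ in depth, and UMIs of rare genes are mostly 0 or 1.

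After each cell was thinned to 5000 UMIs, which left out 1518 cells, at least 1 UMI of MT2A was found in 56.4% ± 7.34 of DLK2-alone cells and 94.1% ± 0.924 of GSTA1-alone cells (SD, n = 3). Before thinning the shares were 66.5% ± 4.94 and 96.4% ± 2.17. For MT1E.1 the thinned shares were 11.6% ± 1.35 and 57.6% ± 4.75. No group of cells that should lack metallothioneins was in the matrix, so the share that free RNA alone would give was not measured.

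The states held unequal parts of the metallothionein RNA. DLK2-alone cells were 30.9% ± 11.6 of cells and gave 8.99% ± 4.48 of the UMIs of the 3 genes. Cells with GSTA1 alone were 10.5% ± 6.37 of cells and gave 21.6% ± 11.5, and cells with GJA1 and GSTA1 were 4.85% ± 2.60 of cells and gave 13.3% ± 6.58 (SD, n = 3). Over all cells the summed level was 18.1, 14.6 and 21.2 UMIs per 10000 UMIs in cows 1, 2 and 3, a 1.45-fold range. With the 10 states weighted equally it was 22.0, 25.8 and 24.0, a 1.17-fold range. Cow 2, which had the largest share of DLK2-alone cells (42.6%), went from the lowest to the highest animal. Equal weights count the GJA1 and FABP4 state, with 13 cells in cow 2 and 6 in cow 3, as much as any other. The part of that small state in the order of the animals was not tested.

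Cells with MKI67, a proliferation marker, carried more. The 2381 cells with a UMI of MKI67 held 25.0 ± 1.08 UMIs of MT2A per 10000 UMIs against 12.8 ± 2.00 in the other cells. Among DLK2-alone cells the 281 with MKI67 held 11.1, 7.87 and 9.40 in cows 1, 2 and 3, above the 5.23, 4.81 and 5.43 of all DLK2-alone cells. Among GSTA1-alone cells the 469 with MKI67 held 31.9 ± 4.82, against 25.8 ± 3.25 for all of them. The cells with MKI67 were deeper, with a median of 14391 UMIs against 10128, and the part of depth was not tested. MKI67 itself and TOP2A, which untangles DNA in dividing cells, were higher in the GJA1 states than in DLK2 alone, by 1.42 ± 0.294 and 1.56 ± 0.265 (log2 ± SE, edgeR adjusted p = 0.00017 and 1.1e-05). The fit weighs the GJA1 states equally. In cow 3 the 2 genes summed to 1.31 UMIs per 10000 UMIs with GJA1 and GSTA1 and 1.25 with GJA1, GSTA1 and FABP4. Both values lay below its 1.35 with DLK2 alone, and GJA1 alone was at 3.87. In cows 1 and 2 each GJA1 state lay above DLK2 alone. MKI67 and TOP2A were also called higher than in DLK2 alone with GSTA1 alone (1.39 and 1.31) and with FABP4 alone (1.80 and 1.54), while TOP2A was called lower with GSTA1 inside the GJA1 states (-1.35, edgeR adjusted p = 0.0077). In the GJA1 states against DLK2 alone, the markers of other cell types that passed the low-count filter, CD74 and VWF, were not called (-0.95 and 0.23 on the log2 scale, edgeR adjusted p = 0.081 and 0.76), nor were the keratins KRT5, KRT14 and KRT19. With GSTA1 alone KRT5 was called higher than in DLK2 alone by 0.37 and KRT19 by 0.66 (log2, edgeR adjusted p = 3.8e-05 and 2.3e-06), with FABP4 alone KRT19 by 0.40 (edgeR adjusted p = 0.0094), and with GSTA1 inside the GJA1 states KRT14 by 0.29 (edgeR adjusted p = 0.028). The part of dividing cells in the metallothionein levels of the states was not tested.

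Depth, mitochondrial share and stress genes moved with the states. Median UMIs per cell over all cows went from 9358 with DLK2 alone to 12190 with GSTA1 alone, 14450 with GSTA1 and FABP4 and 17869 with all of GJA1, GSTA1 and FABP4. The median mitochondrial share of UMIs went from 10.4% with DLK2 alone to 13.3% with GSTA1 alone and 16.3% with GJA1 and GSTA1. Against DLK2 alone, all 3 metallothioneins stayed called in all 3 comparisons with cells thinned to 5000 UMIs, with cells over 20000 UMIs left out, and with cells of 2 to 20% mitochondrial share only.

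Against DLK2 alone, many immediate stress genes were lower where the metallothioneins were higher, and the heat shock genes were not. Of 18 listed genes of immediate stress and heat shock, 2 were called higher and 12 lower in the GJA1 states than in DLK2 alone, where 15.4% of all genes were called higher and 23.2% lower; the list's median was -0.83 on the log2 scale against -0.12 over all genes. The transcription factor JUNB was -1.64, the stress-induced GADD45B -1.60 and the transcription factor FOS -1.54 (edgeR adjusted p = 8.7e-11, 1.2e-08 and 6.2e-11). The 2 called higher, named after their values were seen, were the heat shock genes HSPH1 at 1.22 and HSPA6 at 0.69 (edgeR adjusted p = 3.6e-10 and 0.037), and none of the list's heat shock genes was called lower. Against DLK2 alone, 2 of the 18 were also called higher and 12 lower with GSTA1 alone (18.6% and 18.8% of all genes), and 2 higher and 9 lower with FABP4 alone (8.97% and 7.1%). With GSTA1 inside the GJA1 states 2 were called higher and 2 lower (7.25% and 1.12% of all genes), and between GSTA1 alone and FABP4 alone none was called (0.613%). The list's summed level differed between animals too, at 145, 150 and 56.1 UMIs per 10000 UMIs in DLK2-alone cells of cows 1, 2 and 3 and 66.6, 116 and 47.8 in GSTA1-alone cells. Cow 3 was the lowest in both. The part of these genes in the metallothionein levels was not tested.

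Glucocorticoids are known inducers of metallothionein genes, and 10 of their usual targets were listed beside them. None was called higher and 7 were called lower in the GJA1 states, and none higher and 9 lower with GSTA1 alone, where 23.2% and 18.8% of all genes were called lower. With FABP4 alone none was called higher and 2 were called lower (7.1% of all genes). None of the 10 was called with GSTA1 inside the GJA1 states (8.37% of all genes) or between GSTA1 alone and FABP4 alone (0.613%). The part of glucocorticoids in the metallothionein levels was not tested. ERRFI1, an inhibitor of growth factor receptors, was -0.93 on the log2 scale in the GJA1 states (edgeR adjusted p = 1.7e-06). The transcription factors ZBTB16 and KLF9 were scarce, with 6 and 15 UMIs in the 1661 cells of all GJA1 states together against 198 and 200 in the 6121 DLK2-alone cells. Their mean levels were 0.00222 and 0.00557 UMIs per 10000 UMIs against 0.0525 and 0.0273, and 135 of the 198 UMIs of ZBTB16 were from cow 1.

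Some genes of oxidative defence were higher against DLK2 alone as well. Of 12 listed, 10 were tested; 5 were called higher and none lower in the GJA1 states, and 7 higher and none lower with GSTA1 alone, where 15.4% and 18.6% of all genes were called higher. With FABP4 alone 3 of the 10 were called higher (8.97% of all genes), with GSTA1 inside the GJA1 states 3 (7.25%), and none was called between GSTA1 alone and FABP4 alone. The list's median in the GJA1 states was 0.53 on the log2 scale against -0.12 over all genes. Thioredoxin reductase TXNRD1 was higher by 1.10 ± 0.190, its substrate TXN by 1.02 ± 0.0890 and the haem-degrading HMOX1 by 0.68 ± 0.263 in the GJA1 states (log2 ± SE, edgeR adjusted p = 1.4e-05, 1.8e-11 and 0.039). HMOX1 was not called with GSTA1 alone (-0.52, edgeR adjusted p = 0.067) or FABP4 alone (-0.84, edgeR adjusted p = 0.12). Copper genes split: 3 of 9 tested were called higher and 5 lower in the GJA1 states, where 15.4% and 23.2% of all genes were. The metal reductase STEAP3 was 1.58 and the copper importer SLC31A1 0.85, while CCS, the copper chaperone of superoxide dismutase, was -0.72 (log2, edgeR adjusted p = 7.8e-08, 2.6e-05 and 3.5e-08). With GSTA1 alone 3 copper genes were called higher and 4 lower (18.6% and 18.8% of all genes), and with FABP4 alone 1 and 2 (8.97% and 7.1%). With GSTA1 inside the GJA1 states 2 were called higher and 1 lower (7.25% and 1.12%). Between GSTA1 alone and FABP4 alone 1 was called higher (0.399%).

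The genes most like the 3 metallothioneins were sought over the 29 sums of at least 10 cells, by Pearson's r of log2 levels after each cow's mean was taken out. Levels of the single genes carried edgeR's TMM scaling, while the summed level of the 3 metallothioneins was scaled by library size alone. The first 5 were BST1 (r = 0.929), which makes cyclic ADP-ribose, the membrane glutathione transferase MGST1 (0.925), the growth factor carrier FGFBP1 (0.922), the inhibitor of mitochondrial ATP synthase ATP5IF1 (0.919) and ENSBTAG00000039722 (0.918), for which the files give no symbol. MT3 reached 0.879, while SLC30A1 was at -0.12 and MTF1 at -0.19. The 29 points share 3 libraries and the same states. MGST1 was 1.60, 2.01 and 2.47 UMIs per 10000 UMIs in DLK2-alone cells and 4.87, 6.60 and 6.50 in cells with GSTA1 and FABP4.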

How the data were processed

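The authors aligned the reads of 3 single-cell libraries (Chromium 3′ v3) and counted UMIs with Cell Ranger 3.1.0 (per the labels) against a cattle reference with Ensembl genes, then filtered cells on genes, UMIs and mitochondrial share, marked doublets with DoubletFinder and kept epithelial cells. No doublet caller was rerun. The deposited matrix holds raw UMI counts, and a second table by the authors holds the natural log of 1 plus UMIs per 10000 UMIs. That table was within 1e-06 of values recomputed from the counts and gave the gene names. Coordinates are not given, because the gene table at hand is of another assembly.

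The members and gene lists were chosen with earlier results of these data known. Named besides the members and state genes are zinc-list genes called in at least 1 comparison, up to 3 genes of each other list with the largest absolute log2 fold change among those called in the first comparison, and the 5 genes most like the metallothioneins. Outside this rule are HSPH1 and HSPA6, named after their values were seen, the markers of cell types and proliferation, BPIFA2C and IGFBP5. Counts were summed per cow and state (sums of at least 10 cells, 29 in all) and tested with edgeR 4.0.16 (TMM, filterByExpr, quasi-likelihood, 17 residual degrees of freedom), which was tested on simulated data first. DESeq2 1.42.0 was an alternative. Cells are not replicates, and n is 3 cows. Sums of the same cow deviated together from the state means (mean correlation 0.445, 0.451 and 0.566 for cows 1, 2 and 3, and -0.268 between cows), and they come from the same animal, so the cow was a block. UMI counts at the 3′ end do not scale with gene length. With 3 cows an exact two-sided sign-flip permutation test cannot go below p = 0.25, so single levels carry no test. Other alternatives were library-size scaling, no low-count filter, no block, state genes at 2 or more UMIs, thinned cells, cells of 2 to 20% mitochondrial share only, sums of at least 50 cells, no fold minimum, and leaving out each cow. Leaving out shared barcodes or cells over 20000 UMIs was added after seeing the data.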

Additional observations from a re-analysis of the deposited data

How the results depend on the processing

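Against DLK2 alone, all 117 values of MT1E, MT1E.1 and MT2A under the alternatives kept their direction and their call (MT2A 2.02 to 2.35 for the GJA1 states, 2.32 to 2.94 for GSTA1 alone and 1.71 to 2.31 for FABP4 alone, log2), and DLK2 alone stayed the lowest state. Of the values of SLC30A1, SLC39A4 and MTF1, 16 of 111 against DLK2 alone and 13 of 99 between other states turned sign, and none was called. Sums of at least 50 cells left no GJA1 and FABP4 state, so both comparisons within the GJA1 states could not be run there. The causes of the changes below were not tested.

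Without the cow block, the counts of genes called went from 3970 to 1700 for the GJA1 states, 3848 to 397 for GSTA1 alone and 1652 to 35 for FABP4 alone, each against DLK2 alone, 861 to 202 for GSTA1 and 36 to 1 for FABP4 within the GJA1 states, and 63 to 2 for GSTA1 alone against FABP4 alone. A mitochondrial share of 2 to 20% gave 2547 for the GJA1 states, and 529 for GSTA1 and 4 for FABP4 within them. Thinned cells gave 1009 for FABP4 alone against DLK2 alone, 347 and 58 within the GJA1 states and 30 for GSTA1 alone against FABP4 alone. Library-size scaling gave 537 and 57 within the GJA1 states, and DESeq2 gave 122 for FABP4 there. State genes at 2 or more UMIs gave 210, 3 and 30, and no filter gave 150 for FABP4 within the GJA1 states and 169 for GSTA1 alone against FABP4 alone. Leaving out cells over 20000 UMIs gave 297 and 91 within the GJA1 states. Leaving out 1 cow gave 691 (without cow 2) to 1290 for FABP4 alone against DLK2 alone, 406 to 560 for GSTA1 and 2 (without cow 1) to 127 (without cow 2) for FABP4 within the GJA1 states, and 14 to 74 for GSTA1 alone against FABP4 alone.

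Calls lost for GSTA1 within the GJA1 states were MT1E at 2 or more UMIs (0.62) and without cow 1 (0.43), and MT1E.1 without the block (0.97) and without cow 1 (0.62). Over the 3 runs without 1 cow the values were 0.43 to 0.91 for MT1E and 0.62 to 1.51 for MT1E.1. For GSTA1 alone against FABP4 alone, calls were lost without the block (MT1E 0.71, MT1E.1 0.74, MT2A 0.57), at 2 or more UMIs (0.57 and 0.75 for MT1E and MT1E.1) and at 2 to 20% mitochondrial share (MT1E.1 0.79). Without cow 3 all 3 were lost (MT1E 0.52, MT1E.1 0.65, MT2A 0.47), and without cow 1 MT1E and MT1E.1 were. Over the 3 runs without 1 cow the values were 0.52 to 0.96, 0.65 to 1.03 and 0.47 to 0.74 for MT1E, MT1E.1 and MT2A.

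Signs that turned were all of uncalled values. For the GJA1 states against DLK2 alone these were SLC30A1 thinned (0.39), without cells over 20000 UMIs (0.12) and without 1 cow (-2.33 to 0.45), and MTF1 thinned (0.0463). For GSTA1 alone against DLK2 alone they were SLC30A1 by library size (-0.0418) and without the block (-0.00256), and MTF1 thinned (0.16) and without 1 cow (-0.23 to 0.13). For FABP4 alone against DLK2 alone MTF1 was -0.0144 by library size, -0.0106 without the filter, -0.0445 without the block, -0.0238 thinned, -0.0200 in sums of at least 50 cells, -0.0771 without cells over 20000 UMIs and -0.38 to 0.49 without 1 cow. For GSTA1 within the GJA1 states SLC30A1 was 2.12 at 2 or more UMIs, 4.25 at 2 to 20% mitochondrial share, 0.16 without cells over 20000 UMIs and -0.62 to 3.93 without 1 cow, and MTF1 was -0.51 thinned. For FABP4 within the GJA1 states MT1E was -0.0221 thinned, MT1E.1 -0.60 and MT2A -0.0640 at 2 or more UMIs, MT1E.1 -0.0304 to 0.32 without 1 cow, SLC30A1 4.22 at 2 or more UMIs, 0.0164 thinned, 0.66 without cells over 20000 UMIs and -4.69 to 0.996 without 1 cow, and SLC39A4 0.29 without cells over 20000 UMIs and -3.16 to 0.0595 without 1 cow. For GSTA1 alone against FABP4 alone MTF1 was 0.18 thinned and -0.36 to 0.15 without 1 cow.

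Of 360 levels under the alternatives, 314 moved by less than 1 SD and 46 moved further. The 360 include the runs without 1 cow. Leaving out a cow cannot shift the mean of the cows by as much as 1 SD, whatever the values. Those levels could only fall among the 314, so by this measure they do not show stability. The 46 all came from the other alternatives. Changes past 1.5-fold were listed as well. MT1E.1 in GJA1-alone cells went from 2.88 to 4.72 UMIs per 10000 UMIs with state genes at 2 or more UMIs. In cells with GJA1 and FABP4 it went from 3.85 to 2.19 without cow 2.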

Other observations

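Outside the cell states, the 1823 cells with a UMI of BPIFA2C held 18.7 ± 1.84 UMIs of MT2A per 10000 UMIs against 13.8 ± 3.02 in cells without one (SD, n = 3), and the 12563 cells with IGFBP5 held 15.1 ± 2.09 against 13.3 ± 4.93. For IGFBP5 the cows differed in direction, with 16.1 against 11.3 in cow 1, 12.7 against 9.73 in cow 2 and 16.5 against 18.9 in cow 3.

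By mitochondrial share of UMIs, MT2A was lowest in cells of 2 to 10%, at 4.18, 7.58 and 10.2 UMIs per 10000 UMIs in cows 1, 2 and 3, and was 17.7, 13.5 and 18.7 in cells of 10 to 20%. In the 2048 cells over 20% it was 15.9, 10.1 and 15.8, below the class of 10 to 20% in 3 of 3 cows. The 270 cells under 2% held 17.8, 29.0 and 19.2 at a median depth of 2938 UMIs. These values were not tested.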
